A study of Arabidopsis thaliana with 4 samples.

Results

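The host genes of intronic microRNAs were examined in nuclear RNA of Arabidopsis thaliana: 10 loci, each of which carries a microRNA within its transcribed region. A locus was a member when it was on a list of 10 and its entries in the deposited tables included one named as a hosting gene, here called the host model. In each library the reads of that model were set against the summed reads of the spliced transcript entries of the same locus. The tables hold 27 loci with a host model, among 32548 nuclear loci and 55524 entries, so the 10 loci are a part of the hosts. Members had 45 to 6750 host-model reads and 200 to 8195 spliced reads over the 4 libraries. The other 17 host loci had 0 to 163 host-model reads, and only DCL1 among them had at least 40 reads on both kinds of entry, which all 10 members had. The members were chosen by these read counts on host models and spliced entries, so the values below are given as a description.

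RNA was sequenced from 4 libraries of nuclei of Col-0 plants aged 4 weeks, grown at 22 °C under 16 h of light and 8 h of dark. The plants expressed MTA-GFP, a tagged form of the catalytic subunit of the N6-methyladenosine (m6A) methyltransferase of messenger RNA, or a control protein. Titles give the control as GFP whereas its genotype reads CFP, so it is called control here. All tissue, described as leaf and as aerial tissue, was crosslinked with 0.1% formaldehyde, and both lines gave an immunoprecipitate (IP) on GFP-Trap beads, made to bind GFP, and a nuclear input. The groups, with 1 library each, are MTA-GFP IP, MTA-GFP input, control IP and control input, and values are listed in that order throughout. For the promoter behind MTA-GFP, its insertion line and any pooling of plants, the sources used here give nothing. With 1 library per group no difference has a replicate check and no p-value is given. All intervals are 95% intervals that cover counting error only and treat each read as an independent molecule. PCR copies cannot be recognised without molecular identifiers, so the intervals can be too narrow even for counting error.

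Total reads per library ran from 36098699 (MTA-GFP IP) to 45198238 (control IP), and the share on nuclear messenger RNA was 8.43%, 2.30%, 2.11% and 4.31%. The MTA locus had 12860 and 2291 reads in the MTA-GFP IP and input, against 31 and 64 in the control IP and input, higher in the line labelled MTA-GFP. Leaf markers (LHCB1.3, RBCS1A and LHCA1) summed to 13237 to 53047 reads per library, root markers (PYK10, RHD6 and SCR) to 27 to 150 with RHD6 at 0 in all 4, and flower markers (AP1, AG and AP3) to 0 to 6. In bulk nuclei, fewer cells that express a gene and less RNA per cell cannot be told apart.

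Most plant microRNAs are transcribed from genes of their own, and a minority lie inside the introns of other genes. DCL1 cuts the stem-loop of the primary transcript, with the partners HYL1 and SE, in the nucleus and close to transcription. For an intronic microRNA the stem-loop lies in the intron and is absent from the spliced transcript, so splicing and microRNA processing draw on the same precursor. The study's title places m6A on such primary transcripts. Reads on a host model can come from RNA that holds intron sequence, spliced out or not, or from sequence that the model shares with the spliced entries. Which exons the models hold is not stated in the sources used here.

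The 10 hosts fall into annotated enzymes and machinery, unnamed protein-coding loci and 1 non-coding locus. SPPL4 (AT1G01650, host of miR2112) is a signal peptide peptidase-like protease of membranes. CALS1 (AT1G05570, miR5640) is a callose synthase, which makes the glucan laid down in cell plates and at plasmodesmata. GAD2 (AT1G65960, miR5014a) is a glutamate decarboxylase, which makes GABA. PKL (AT2G25170, miR862), PICKLE, is a CHD3-type chromatin remodeller that keeps embryonic genes off in seedlings. alpha-ADR (AT5G22770, miR3434) encodes alpha-adaptin, a large subunit of the clathrin adaptor AP-2 in endocytosis. AT1G77230 (miR402), AT2G37160 (miR1886), AT4G14500 (miR852) and AT5G21100 (miR1888a) are protein coding and have no symbol in the reference gene table. AT4G13495 (miR5026 and miR850) is annotated as a non-coding RNA.

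Host models were 2765 nt (AT5G21100) to 11765 nt (CALS1) long, from 1.13 times (GAD2) to 7.28 times (AT4G13495) the longest spliced entry of the locus. All 11 hosted MIR loci lie inside the span of their host in the reference gene table. Other annotated genes overlap 4 of the hosts as well: AT1G08797 and TPX2 at GAD2, AAE2 at AT1G77230, AT2G25169 and AT2G08120 at PKL, and CFM3B at AT4G14500. MIR863 overlaps AT4G13495 in part. The sources used here do not state whether counting used strand, so reads of these neighbours cannot be told apart from those of the hosts. Host-model reads were whole numbers, within 0.001, in all 4 libraries for SPPL4, CALS1 and alpha-ADR. At AT1G77230, PKL, AT2G37160 and AT5G21100 only the total of host model and spliced entries was whole, so reads were divided between the entries of the locus. At GAD2, AT4G13495 and AT4G14500 neither was whole.

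AT4G13495 was the most abundant host by far. Its host model had 1968, 1503, 723 and 2556 reads, or 54.5, 34.2, 16.0 and 63.9 RPM (reads scaled to library depth), and its spliced entries had 2719, 1360, 923 and 3193 reads. Both kinds of entry were high in the MTA-GFP IP and the control input and lowest on this scale in the control IP. GAD2 came next, with 311, 101, 99 and 221 host-model reads beside 1564, 479, 359 and 1035 spliced reads. The other 8 members had 2 to 185 host-model reads in a library. The median host-model level of the 10 was 3.24 RPM in the MTA-GFP IP, 0.592 RPM in the MTA-GFP input, 0.752 RPM in the control IP and 1.52 RPM in the control input. The medians of the spliced sums were 8.41, 2.42, 1.84 and 4.39 RPM. These levels depend on the messenger RNA share of each library as well as on the locus. The balance between entries of a locus needs no scaling and is described first.

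**Figure D1:**
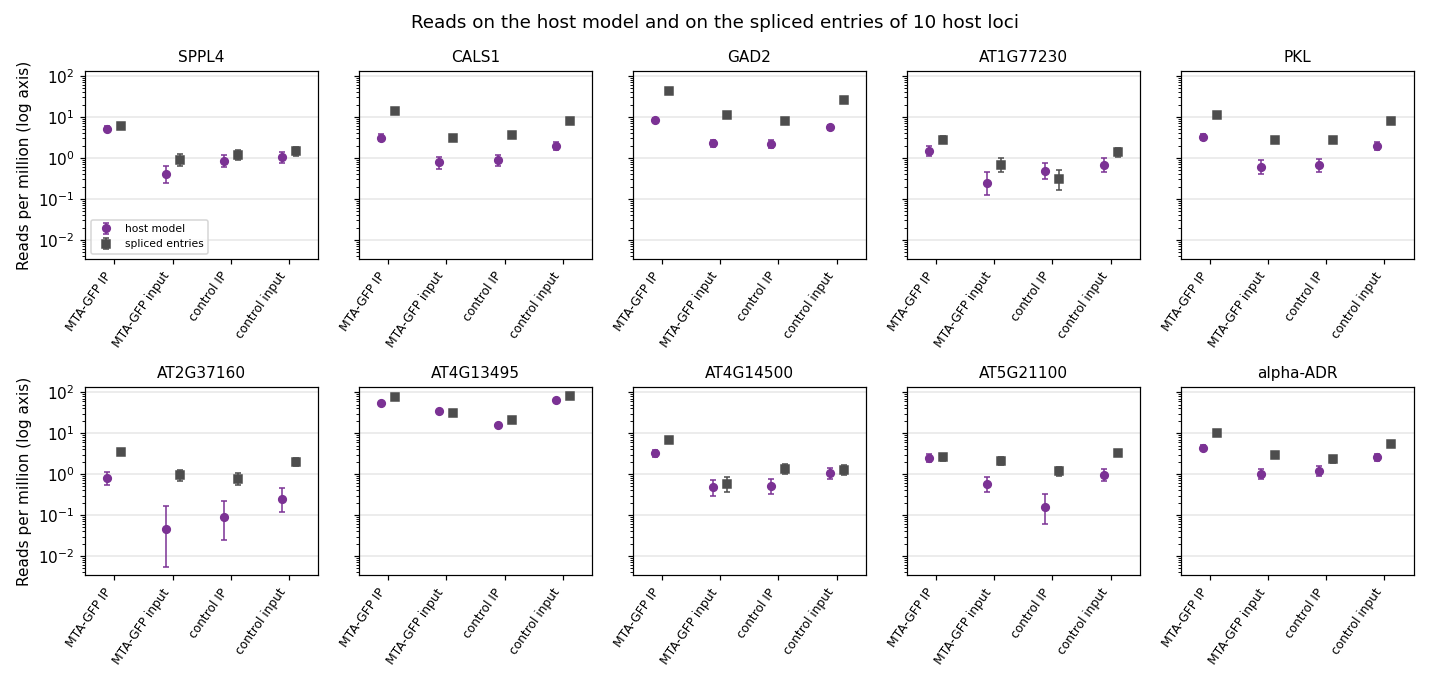
Level in RPM (log axis) on the host model (circles) and summed over the spliced entries (squares) of each of the 10 host loci in the 4 libraries, with exact 95% Poisson intervals. AT4G13495 lies highest, and AT2G37160 has the lowest host-model level, at 0.0455 RPM in the MTA-GFP input.

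The host-model share is the percentage of host-model reads among host-model and spliced reads of a locus. In CALS1, PKL, GAD2 and alpha-ADR the intervals of all 4 libraries overlapped. CALS1 had shares of 18.5%, 20.4%, 19.7% and 19.7%, from 112, 34, 40 and 80 host-model reads beside 492, 133, 163 and 327 spliced reads. PKL had 22.5%, 18.2%, 19.5% and 19.7%, from 117, 27, 30 and 79 host-model reads beside 403, 121, 124 and 323 spliced reads. The intervals ran from 14.5% to 27.3% for CALS1 and from 12.4% to 26.6% for PKL. GAD2 had 16.6%, 17.4%, 21.6% and 17.6%, the highest in the control IP. Its spliced sum includes AT1G65960.3, which is 5070 nt long beside a host model of 5728 nt. That entry held 452, 122, 160 and 358 of the spliced reads. The shares of GAD2 and the overlap of their intervals are given with it counted as spliced. alpha-ADR had 31.0%, 25.4%, 34.4% and 32.2%, from 161, 45, 55 and 104 host-model reads beside 358, 132, 105 and 219 spliced reads.

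The share differed most among libraries at AT5G21100. Its host model had 90, 25, 7 and 39 reads and its single spliced entry 94, 92, 53 and 132. The share was 48.9% (41.5 to 56.4) in the MTA-GFP IP and 21.4% (14.3 to 29.9) in the MTA-GFP input. It was 11.7% (4.82 to 22.6) in the control IP and 22.8% (16.7 to 29.8) in the control input. The MTA-GFP IP stood above the other 3 libraries with no overlap of intervals, and both inputs lay close together.

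AT2G37160 had few host-model reads, 29, 2, 4 and 10, beside 126, 42, 35 and 78 spliced reads. Its shares were 18.7%, 4.55%, 10.3% and 11.4%. The MTA-GFP IP was the highest, but its interval of 12.9% to 25.8% overlapped those of the other 3 libraries. SPPL4 had 185, 18, 38 and 41 host-model reads beside 213, 40, 54 and 58 spliced reads. Its shares of 46.5%, 31.0%, 41.3% and 41.4% set the MTA-GFP input below the rest, again with overlapping intervals. AT1G77230 had 54, 11, 22 and 27 host-model reads beside 101, 30, 14 and 55 spliced reads. Its shares were 34.8%, 26.8%, 61.1% (43.5 to 76.9) and 32.9%, the highest in the control IP.

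At AT4G14500 both IPs had the lower share. Its host model had 117, 21, 23 and 43 reads beside 249, 25, 61 and 51 spliced reads, for shares of 32.0%, 45.7%, 27.4% and 45.7%. AT4G13495 had 42.0%, 52.5%, 43.9% and 44.5%, with the MTA-GFP input (50.6 to 54.3) above the other 3 libraries. Over all 10 members the lowest, median and highest shares were 16.6%, 31.5% and 48.9% in the MTA-GFP IP and 4.55%, 23.4% and 52.5% in the MTA-GFP input. They were 10.3%, 24.5% and 61.1% in the control IP and 11.4%, 27.5% and 45.7% in the control input. Because host models are longer than spliced transcripts, a share of reads exceeds the share of molecules. On the deposited TPM values, which divide by length, the median share was 13.1%, 11.5%, 10.6% and 13.4%.

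**Figure D2:**
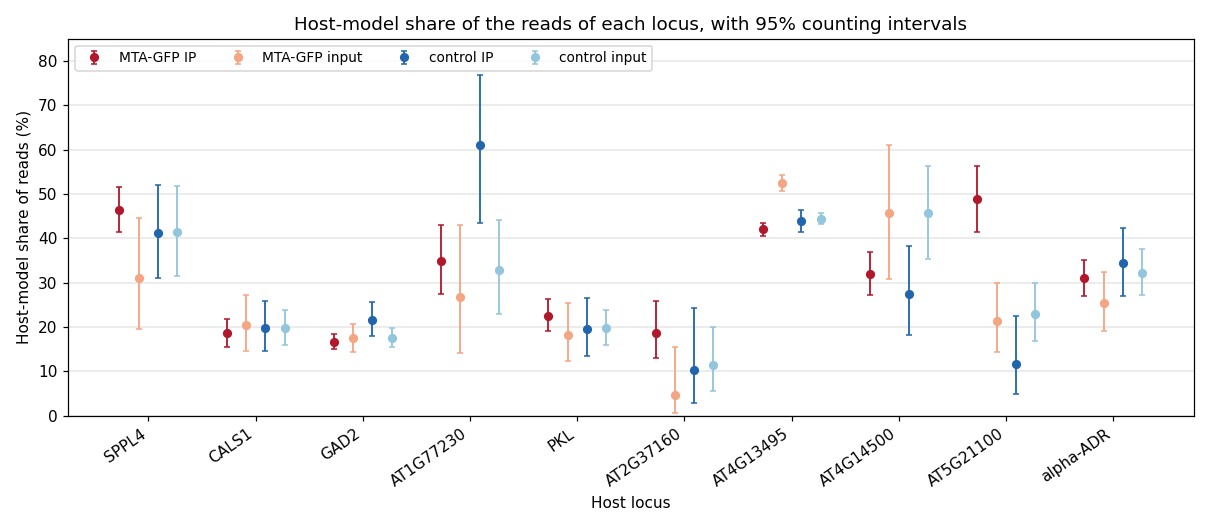
Host-model share of the reads of each host locus (percent) in the 4 libraries, with exact 95% binomial intervals. AT5G21100 reaches 48.9% in the MTA-GFP IP against 11.7% to 22.8% in the other libraries, whereas CALS1 and PKL stay between 18.2% and 22.5%.

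Reads of the members were next compared between IP and input as the log2 ratio of host-model to spliced reads in the IP over that in the input, with 0.5 reads added to each count. A difference was counted as higher or lower when it was at least 2-fold and its interval left out no difference. By this rule 2 members were higher and 0 lower in MTA-GFP IP over input, where 9.52% of the 21 host loci with a spliced entry and at least 40 reads were higher and 0% lower. In control IP over input 1 member was higher and 1 lower, where 14.3% of the 21 host loci were higher and 4.76% lower. The members make up 10 of those 21 loci. The median over the 10 members was 0.38 in the MTA-GFP pair and -0.01 in the control pair, beside 0.36 and 0.21 over the 21 loci. Over the 11 of these that were no members it was 0.34 and 1.02. Among those 11, only DCL1 had at least 40 reads on both kinds of entry.

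The higher members in the MTA-GFP pair were AT5G21100, at 1.80 (1.04 to 2.55), and AT2G37160, at 1.99 (0.06 to 3.92). The second rests on 2 reads in the input. SPPL4 had 0.93 (0.08 to 1.77) and AT4G13495 -0.61 (-0.75 to -0.48), both under the 2-fold limit. In the control pair AT1G77230 was higher, at 1.65 (0.49 to 2.81), and AT4G14500 lower, at -1.14 (-2.04 to -0.24). AT4G14500 had -0.84 (-1.73 to 0.05) in the MTA-GFP pair, so its IP leaned to spliced reads in both lines. AT5G21100 had -1.09 (-2.30 to 0.13) in the control pair, opposite in sign to its MTA-GFP value.

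The double ratio divides the MTA-GFP ratio by the control ratio. In it, AT5G21100 was the single member past this rule, at 2.89 (1.45 to 4.32), a 7.39-fold difference, where 9.52% of the 21 host loci were higher and 0% lower. AT2G37160 had 2.06 (-0.50 to 4.63) and SPPL4 0.93 (-0.25 to 2.11), with intervals that include no difference. AT4G13495 had -0.58 (-0.79 to -0.37) and AT1G77230 -1.14 (-2.73 to 0.45). The remaining 5 members lay between -0.46 (GAD2) and 0.37 (PKL), with intervals that include 0.

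Between the inputs, no member passed the rule, where 0% of the 21 host loci were higher and 4.76% lower in the MTA-GFP input over the control input. AT4G13495 alone among the 10 had an interval off 0, at 0.47 (0.34 to 0.59), under the 2-fold limit. With 1 input library per line, a difference between lines and one between libraries cannot be told apart. AT5G21100 had -0.11 (-0.93 to 0.70) there. Directly between the IPs, AT5G21100 was higher in MTA-GFP than in control, at 2.77 (1.59 to 3.95), and AT1G77230 lower, at -1.53 (-2.60 to -0.47), where 4.76% of the 21 host loci were higher and 9.52% lower. The 5 ratios share libraries and are not independent of each other.

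**Figure D3:**
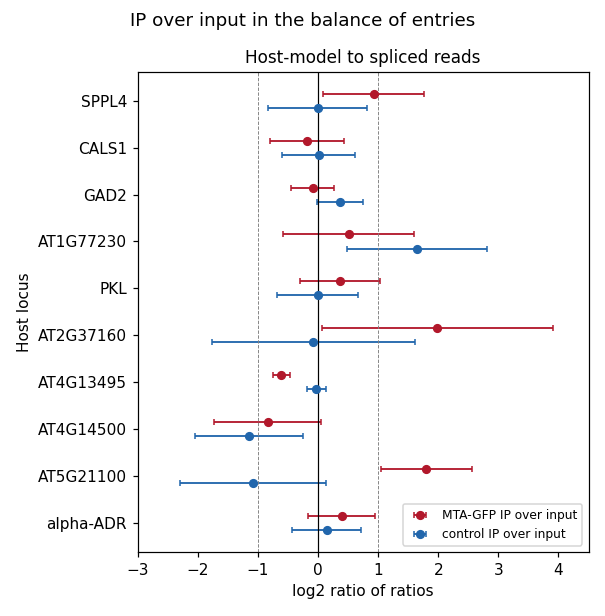
Log2 ratio of host-model to spliced reads in the IP over the input for each host locus, in the MTA-GFP pair (upper of each pair of points) and the control pair (lower), with 95% counting intervals. Dashed lines mark 2-fold. AT5G21100 lies at 1.80 in the MTA-GFP pair and at -1.09 in the control pair.

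To see which kind of entry moved, reads of each kind were scaled by TMM, a scaling under which most loci keep their level, and compared between libraries. On this scale the host model of SPPL4 was higher in MTA-GFP IP over input, at 1.46 (0.78 to 2.26) or 2.75-fold, and that of AT4G13495 was lower, at -1.50 (-1.59 to -1.40). Over 21779 nuclear entries, 22% were higher and 17.6% lower in that ratio, beside 1 of the 10 members each way. The shares over nuclear entries count single entries, whereas spliced reads are sums over a locus. Single entries are called more often than sums: 39.6% of entries against 15.5% of nuclear loci in that ratio, in either direction. The spliced reads of AT4G14500 were higher, at 1.42 (0.83 to 2.09), and those of AT5G21100 lower, at -1.84 (-2.28 to -1.42). The host model of AT5G21100 was at -0.04 (-0.69 to 0.66) in that ratio.

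In control IP over input the host model of AT5G21100 was lower, at -1.48 (-2.92 to -0.34), where 18.9% of nuclear entries were higher and 22.3% lower. Its spliced reads were at -0.35 (-0.84 to 0.12). The control pair also had AT4G14500 spliced reads higher, at 1.21 (0.66 to 1.79), close to their value in the MTA-GFP pair. SPPL4 had host-model and spliced ratios of 0.85 (0.18 to 1.53) and 0.86 (0.30 to 1.42) there.

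In the double ratio the host model of AT5G21100 was higher, at 1.44 (0.15 to 2.73), and its spliced reads were lower, at -1.49 (-2.11 to -0.87), where 20.8% of nuclear entries were higher and 17% lower. Both kinds of entry thus contribute to its balance of 2.89. Directly between the IPs its host model was higher in the MTA-GFP IP, at 1.62 (0.56 to 3.01), and its spliced reads lower, at -1.19 (-1.70 to -0.69), where 18.3% of nuclear entries were higher and 13.3% lower. The directions of the spliced reads of AT5G21100, and of the host model of AT4G13495 and the locus sums of both in MTA-GFP IP over input, hold relative to the median locus and turn round when libraries are scaled to all reads. That scale moves the median of all loci to 2.11 in the MTA-GFP pair, -1.12 in the control pair and 3.25 in the double ratio, whereas the balance within a locus does not depend on it.

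**Figure D4:**
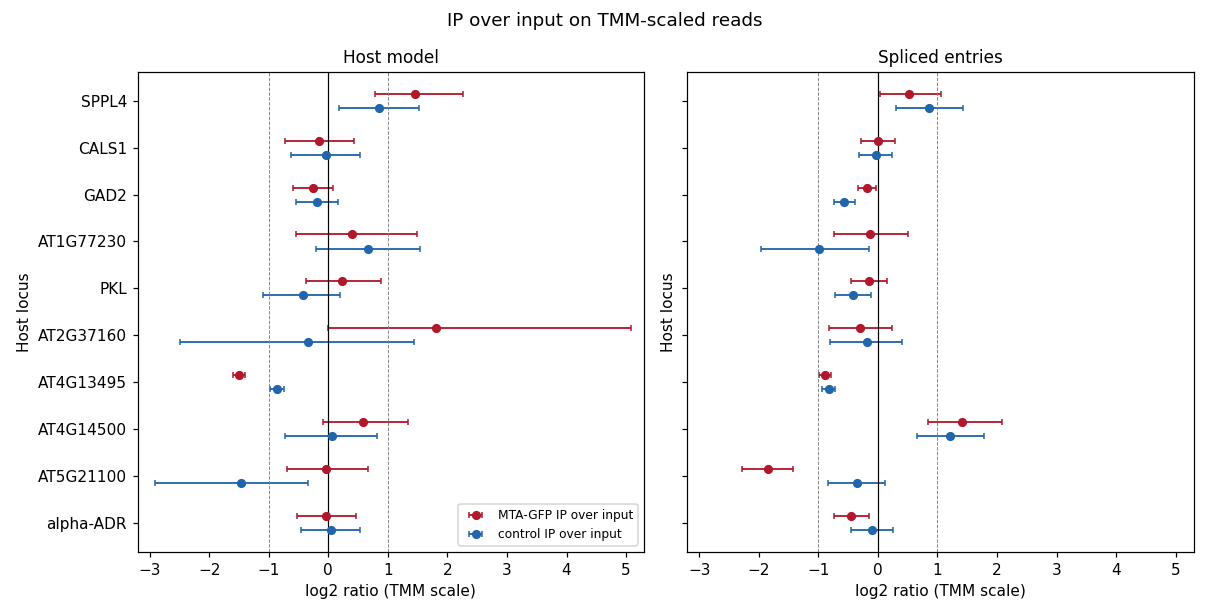
Log2 ratio of TMM-scaled reads in the IP over the input for the host model (left panel) and the spliced entries (right panel) of each host locus, in the MTA-GFP pair (upper of each pair of points) and the control pair (lower), with 95% counting intervals. At AT5G21100 the spliced reads lie at -1.84 in the MTA-GFP pair while the host model lies at -1.48 in the control pair.

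Counted over every entry of a locus, AT4G14500 was higher in MTA-GFP IP over input, at 1.10, and AT5G21100 and AT4G13495 were lower, at -1.23 and -1.17. Of 15669 nuclear loci, 7.12% were higher and 8.4% lower. No member passed the rule in control IP over input, where 9.18% of loci were higher and 12.4% lower, nor in the double ratio, where 8.6% were higher and 8.9% lower. The same held between the inputs (7.02% higher and 6.8% lower) and between the IPs (5.11% higher and 4.2% lower). The members' median locus ratio was -0.07, -0.21 and 0.09 in the MTA-GFP pair, the control pair and the double ratio, beside -0.03, -0.01 and -0.01 over all loci.

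Pooled over the 10 members, the host-model share was 33.2%, 42.1%, 35.5% and 36.9%. AT4G13495 carried more of these reads than any other member in each library and set the order. Without it the shares were 24.6% and 20.6% in the MTA-GFP IP and input and 24.7% and 22.0% in the control IP and input. The pooled balance was -0.55 in the MTA-GFP pair, -0.09 in the control pair and -0.46 in the double ratio, and 0.33 (0.12 to 0.54), 0.22 and 0.11 without AT4G13495. The pooled value thus turned sign in both pairs and in the double ratio when that locus was left out, and the intervals without it include 0 in the control pair (-0.0046 to 0.44) and in the double ratio (-0.19 to 0.42).

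The hosted microRNA precursors have entries of their own, which are short stretches inside the host. Over the 11 hosted MIR loci these had 32, 29, 7 and 38 reads, or 0.886, 0.660, 0.155 and 0.950 RPM. MIR850, inside AT4G13495, held most of them, with 14, 27, 5 and 38 reads. MIR3434 in alpha-ADR had 6, 2, 2 and 0 reads after rounding, from estimates of 5.5, 1.5, 2.5 and 0.5. After rounding, MIR2112 in SPPL4 had 5 reads, MIR5026 in AT4G13495 had 4, MIR5640 in CALS1 had 2 and MIR5014a in GAD2 had 1. Each had these in the MTA-GFP IP with 0 in the other 3 libraries, where MIR5014a had an estimate of 0.374 in the MTA-GFP input. Without MIR850 the sums were 18, 2, 2 and 0. The counts of single precursors and these sums are not scaled. The nuclear messenger RNA share was also highest in the MTA-GFP IP, at 8.43% against 2.11% to 4.31% in the others. A difference in precursor reads between libraries was not tested.

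MIR402, MIR862, MIR1886, MIR852 and MIR1888a had no read in any library after rounding. A count of 0 allows up to 3 reads, or 0.0664 to 0.0831 RPM depending on the library. MIR1888a, the microRNA of AT5G21100, is thus one of the precursors not detected at this depth. Shared reads can be divided between precursor and host model, so a precursor count is not separate evidence from the host model around it.

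The assignment of reads among the spliced entries of one locus varied far more than their sum. At PKL, the entry AT2G25170.1 took 401 reads in the MTA-GFP IP and 0 in the MTA-GFP input, and 124 in the control IP and 46.0 in the control input. The entry AT2G25170.2 took 0.000104 and 120 reads in the MTA-GFP IP and input, and 0.416 and 275 in the control IP and input. The 2 entries are 4522 and 4429 nt long. At AT2G37160, the entry AT2G37160.1 took 91.5 reads in the MTA-GFP IP and 0 in the MTA-GFP input, and 0 in the control IP and 12.0 in the control input. For this reason spliced entries were summed. AT1G77230 and AT5G21100 have a single spliced entry, with no such division among spliced entries. At both loci reads were still divided between the host model and that entry, and the counting intervals leave this out.

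DCL1, which cuts the primary transcripts and hosts miR838, is the further host locus with enough reads to compare. Its host model had 68, 20, 38 and 37 reads beside 770, 339, 352 and 780 spliced reads. The shares of 8.11%, 5.57%, 9.74% and 4.53% were below those of every member in the MTA-GFP IP, the control IP and the control input, and below all but AT2G37160 in the MTA-GFP input. The intervals of DCL1 and AT2G37160 overlapped in the MTA-GFP input and in both control libraries. Its balance was 0.56 (-0.18 to 1.29) in the MTA-GFP pair, 1.18 (0.51 to 1.86) in the control pair and -0.63 (-1.62 to 0.37) in the double ratio. It was past the size rule in the control pair, the pair in which AT5G21100 had -1.09. Among the 11 host loci with a spliced entry and at least 40 reads that were no members, 0% were higher or lower in balance in the MTA-GFP pair and 18.2% were higher in the control pair. In the double ratio 9.09% of the 11 were higher, and between the inputs and between the IPs 9.09% were lower. The other host loci without DCL1 had pooled shares of 29.9%, 21.8%, 26.8% and 26.8%. MIR162a has a host model and no spliced entry, and was left out of these shares and balances. The 53 primary transcript models of microRNA genes, pooled and TMM-scaled, had ratios of 0.51, 0.54 and -0.04 in the MTA-GFP pair, the control pair and the double ratio.

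A list of 28 genes was read beside the hosts. It holds 19 for the processing and maturation of microRNAs and 9 for the U1 snRNP, which recognises the start of an intron. All 28 had at least 40 reads. Of these, 1 was higher and 6 lower in the MTA-GFP pair, 2 higher and 8 lower in the control pair, and 4 higher and 2 lower in the double ratio. Of all nuclear loci, 7.12%, 9.18% and 8.6% were higher in the same order, and 8.4%, 12.4% and 8.9% were lower. The medians of the list were -0.51, -0.44 and 0.01, beside -0.03, -0.01 and -0.01 over all loci.

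Most reads fell on GRP7, a glycine-rich RNA-binding protein, with 13543, 4901, 4058 and 14324 reads, and on DCL1 with 838, 359, 390 and 817. MOS2, an RNA-binding protein needed for microRNA maturation, had 107, 67, 13 and 261 reads, with ratios of -1.20, -3.33 and 2.13 (1.23 to 3.04) in the MTA-GFP pair, the control pair and the double ratio. DDL, a forkhead-associated protein that binds DCL1, had 78, 88, 27 and 371 reads and ratios of -2.04, -2.80 and 0.76. CBP20, the small cap-binding subunit, had 77, 46, 14 and 137 reads and a double ratio of 1.17 (0.23 to 2.11). MOS2, DDL and CBP20 were lower by the size rule in both pairs on the TMM scale. GRP7 and DCL1 passed it in neither pair.

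Ratios of U1 snRNP genes follow for the MTA-GFP pair, the control pair and the double ratio. LUC7RL had 364, 151, 66 and 581 reads and ratios of -0.61, -2.17 and 1.55 (1.10 to 2.01). PRP40A had 335, 194, 102 and 891 reads and ratios of -1.09, -2.16 and 1.06 (0.67 to 1.45). Both genes thus lay below the input in both IPs on the TMM scale. Directly between the IPs they had 0.44 and -0.31, and neither passed the rule. U1C had 37, 7, 17 and 6 reads and ratios of 0.50, 2.36 and -1.86 (-3.59 to -0.14). Between the inputs 1 of the 28 genes was higher and 4 lower, where 7.02% of nuclear loci were higher and 6.8% lower. MTA-GFP input over control input was -1.13 at MOS2, -1.25 at DDL, -1.12 at LUC7RL, -1.37 at PRP40A and 1.95 at U1A. The part of that difference in the double ratios was not tested.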

How the data were processed

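Per the labels' protocols, nuclear RNA of crosslinked tissue was sequenced with a directional kit. Per the submitters' processing notes, the authors used Trimmomatic, Bowtie, HISAT2 and Salmon on build TAIR10. Not given in the sources used here are versions, roles and the strand setting. Per the file headers, the deposited tables give for each entry its length, a TPM value and an estimated count of reads. Salmon divides reads that match several entries.

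Estimated counts were summed per host model, spliced set and locus, and rounded. Shares have exact Clopper-Pearson intervals, levels exact Poisson intervals, ratios of 2 libraries exact conditional intervals, and balances and double ratios intervals from Poisson variances. TMM factors (edgeR 4.0.16, R 4.3.3) over loci with at least 40 reads were 2.37, 0.641, 0.581 and 1.13, in the order MTA-GFP IP, MTA-GFP input, control IP, control input. Scaled ratios had 0.5 added to the scaled reads. Symbols and neighbours came from the reference gene table (all 10 members matched). No sequence was available to this work, so none is shown.

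Members, gene lists and rules were chosen with earlier results of these data known. Named are all members, hosted MIR loci with a read, DCL1, and from the pathway list the 2 genes with most reads and the 6 with the largest called ratios; other named genes were chosen after their values were seen. Alternatives were scaling, reads added, the minimum for the factors, the first spliced entry, TPM values, leaving out the largest member, and, chosen after seeing the data, AT1G65960.3 (5070 nt) counted with the host model.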

Additional observations from a re-analysis of the deposited data

Results flagged for a closer look

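The balance of host-model to spliced reads at AT5G21100 had opposite signs in the lines. It was 1.80 in the MTA-GFP pair (IP over input) and -1.09 in the control pair, for a double ratio of 2.89. The interval of the control value includes no difference, whereas those of the MTA-GFP value and the double ratio do not. Each group holds 1 library, so the difference between the lines was not tested beyond counting error. The control value rests on 7 host-model reads in the control IP.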

How the results depend on the processing

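No paired analysis was possible because each group holds 1 library. Of 1100 recomputed member values, 888 stayed within their interval. The 1100 include recomputations that could not change a value, such as AT1G65960.3 moved at a locus other than GAD2. In all, 132 changed sign, 65 of them on the all-reads scale, 32 on the messenger RNA scale and 25 with the first spliced entry. Of the 132, 37 had an interval off 0 on the TMM scale or in the balance, and 7 were past the size rule. Most moves came from scaling to all reads (145), to nuclear messenger RNA reads (33) or from the first spliced entry (31). The double balance of AT5G21100 ran from 2.80 to 3.01. Only the TPM values and the added read could change it, since the locus has 1 spliced entry and scaling does not enter a balance.

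The pooled host-model shares (MTA-GFP IP, MTA-GFP input, control IP, control input) were 8.50%, 9.89%, 8.51% and 7.77% on TPM values, 56.1%, 63.1%, 55.4% and 54.9% with the first spliced entry, 38.0%, 45.0%, 41.0% and 41.0% with AT1G65960.3 counted with the host model, and 24.6%, 20.6%, 24.7% and 22.0% without AT4G13495. The pooled balance in the MTA-GFP pair was -0.24 on TPM, -0.42 with the first spliced entry, -0.42 with AT1G65960.3 moved and 0.33 without AT4G13495. In the control pair it was 0.14 on TPM and 0.22 without AT4G13495, and in the double ratio 0.11 without it. At GAD2 alone, the balance directly between the IPs was -0.48, and it was -0.92 with AT1G65960.3 moved.

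Pooled ratios follow for the MTA-GFP pair, the control pair and the double ratio. Scaled to all reads, host models had 1.10, -1.80 and 2.89, spliced reads 1.65, -1.71 and 3.36, and loci 1.44, -1.74 and 3.18. Scaled to messenger RNA reads, host models had -0.77, -0.77 and -0.0045, spliced reads -0.22, -0.68 and 0.46, and loci -0.43, -0.71 and 0.28. Without AT4G13495, host models had 0.16, -0.053 and 0.22, loci -0.091, -0.22 and 0.13, and spliced reads -0.17 and -0.27 in the 2 pairs. The sign of the pooled host models in the MTA-GFP pair thus turned on the all-reads scale and without AT4G13495.

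Scaled to all reads, AT4G13495 turned to 0.67 (host model), 1.28 (spliced) and 0.99 (locus) in the MTA-GFP pair, to 2.67, 3.25 and 2.97 in the double ratio and to 1.77, 1.88 and 1.83 between the IPs. AT5G21100 turned to 0.93 for the locus, and its spliced reads to 0.31 in the MTA-GFP pair, 1.80 in the double ratio and 1.14 between the IPs. That scale by its construction carries the unequal messenger RNA share. With the first spliced entry, the balance in the MTA-GFP pair turned to -3.95 at AT2G37160, whose entry had 0 reads in the MTA-GFP input and the control IP. It turned to -3.91 at SPPL4, -7.55 at PKL, -2.70 at alpha-ADR and 0.61 at CALS1. In the double ratio it turned to -7.38, -3.17, -4.75, -9.27 and 8.04 at the same loci. The first entry also had 0 reads at PKL in the MTA-GFP input, at alpha-ADR in the control IP and at CALS1 in the control input. At GAD2 the values became 1.62 and 2.77. Its first entry had 0 reads in all 4 libraries, so these compare unscaled host-model reads alone and are not a balance. They are among the 25 changes of sign given above for the first spliced entry.

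Members called on the all-reads scale numbered 9, 7 and 10 for host models, 9, 8 and 10 for spliced reads and 8, 8 and 10 for loci, against 2, 1 and 1, 2, 1 and 1, and 3, 0 and 0 on TMM. On the all-reads scale 86.5%, 59.5% and 83.6% of nuclear entries and 93.5%, 53.9% and 96.7% of nuclear loci were called in either direction. On the messenger RNA scale 4 host models and 2 spliced sums were called in the double ratio, and 2 spliced sums in the control pair. In these 39.3% and 41.2% of nuclear entries, and 21.7% and 21.8% of nuclear loci, were called. The count of spliced sums in the control pair was also 2 with factors over loci of at least 10 or 1 reads. Low host-model reads, down to 2, limit AT2G37160 most.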
